A study of Arabidopsis thaliana with 12 samples.

Results

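The genes described here are 66 Arabidopsis thaliana nuclear genes whose array signal was lower in all 6 low CO2 samples than in any of the 6 normal CO2 samples. Each was read by a probe that the array's annotation assigns to exactly 1 gene. Signals were divided by the median of their array, and a mean deposited intensity of at least 0.3 at normal CO2 was required. Of 692 single-gene probes, 472 reached that intensity and 75 of these met the rule, and 9 genes among the 75 were left out by name, which leaves 66 of the 3439 probes on the array. The rule used the measured values of this contrast, so the differences below describe the selected probes and are given without a test.

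The tested plants were wild type, ecotype Columbia 0, and spent 48 h in air with 0.003% CO2 by volume, labelled day 2 (6 samples). The plants they were set against were of the same genotype and ecotype at a normal CO2 level, labelled day 0 (6 samples). No plant age, tissue or light regime is given in the labels, and nothing there states that the samples of a group are separate plants, so spreads may be technical. Because day and CO2 level moved together, effects of CO2 and of elapsed time cannot be told apart. In bulk RNA, fewer cells of a type and less RNA per cell cannot be told apart either. Array medians ran from 0.343 to 0.373 at low CO2 and from 0.489 to 0.576 at normal CO2. Values of 0 numbered 187 to 302 per array at low CO2 and 129 to 174 at normal CO2. Of the 10 leaf markers looked for, 3 had a single-gene probe (SBPASE, LHB1B2 and PRK), with summed deposited intensities of 3.54 to 5.52 at low CO2 and 7.68 to 12.1 at normal CO2. These sums are not divided by the array medians, which were lower at low CO2. On quantile-normalized values limma gave log2 fold changes of -0.68 (SBPASE), -0.97 (LHB1B2) and -0.73 (PRK). The part of these markers in the differences below was not tested. None of 4 root, 4 seed and 3 guard cell markers had a single-gene probe.

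Carbon dioxide is the substrate that Rubisco fixes in the Calvin-Benson cycle. When it is scarce, Rubisco reacts more often with oxygen, photorespiration runs faster, and leaves are short of an acceptor for the electrons and energy that photosynthesis supplies. Leaves also make less sugar, and sugar supply is known to influence transcripts for growth, cell walls and organelle upkeep.

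Across the 66 probes, the mean signal at low CO2 was between 13.3% and 75.5% of that at normal CO2, with a median of 39.7%. It was under 25% in 5 genes, between 25% and 50% in 40 genes and above that in 21 genes. The median log2 ratio of the 66 was -1.33, while the median over all probes was -0.06 and over the 472 single-gene probes of the same minimum intensity -0.09. Lack of overlap in this direction was frequent on the array. It was found in 12.4% of all probes, and among probes of the same minimum intensity in 15.9% of those with 1 gene, 18.3% of those with several genes and 15.1% of those that the annotation does not list. The opposite pattern, all low CO2 samples above all normal CO2 samples, was met by 72 single-gene probes, or 15.3%. For it too the minimum intensity was set at normal CO2, there the lower group, so the intensity filter was not mirrored. By limma, fitted over all probes on quantile-normalized log2 values with a Benjamini-Hochberg adjusted p under 0.05, 42.4% of all probes were called, 23.5% of all lower and 18.9% higher at low CO2. Of the 66, limma called 65 lower, which their choice on the same contrast all but fixes, and AT4G20760, with a value of 0 in low CO2 replicate 4, was not called.

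**Figure D1:**
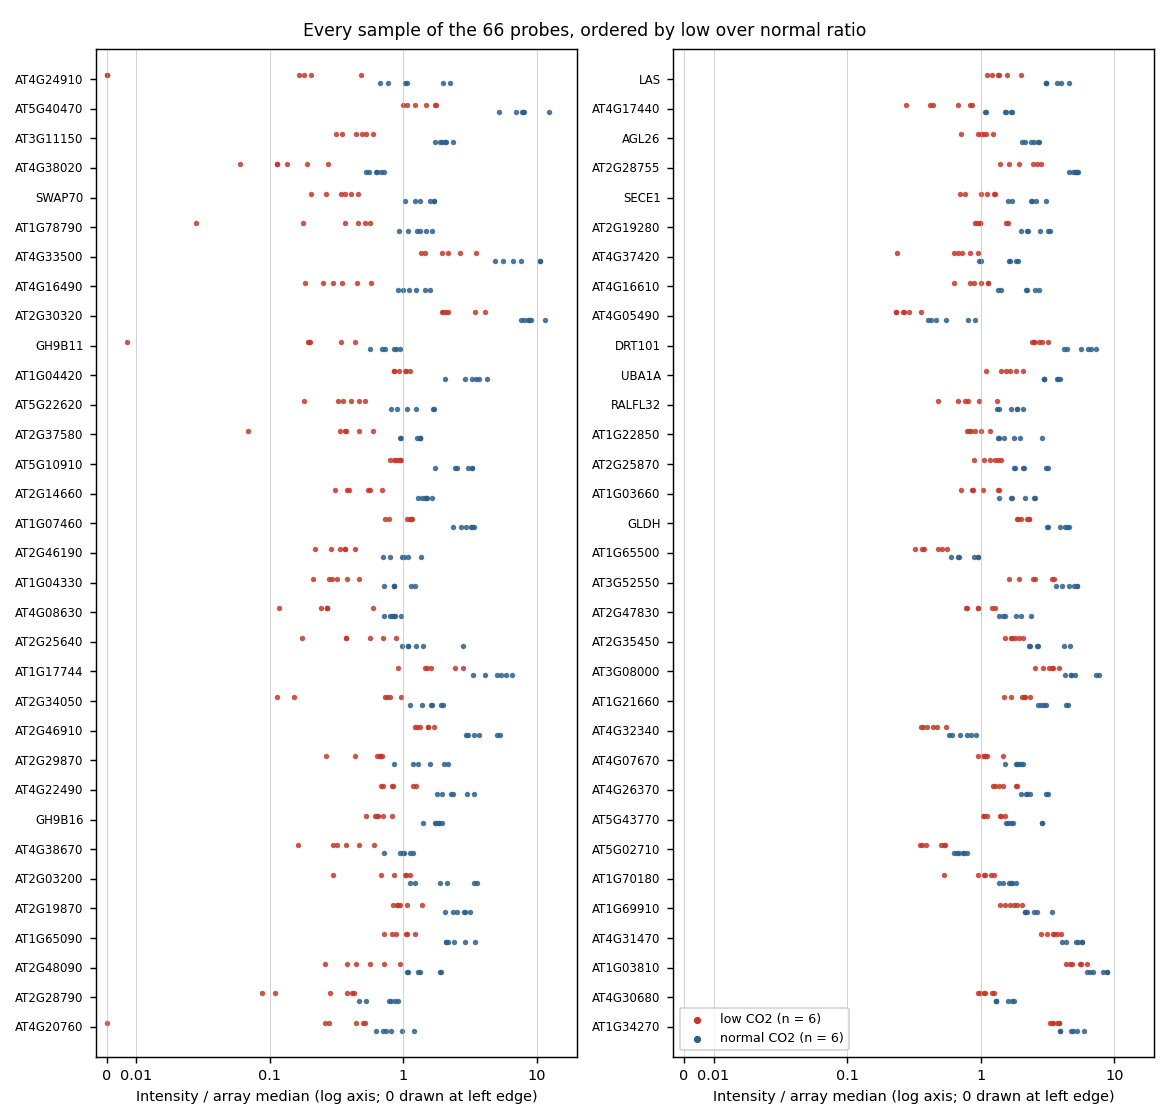
Signal of each of the 66 probes divided by its array's median, on a log axis, with 6 low CO2 samples (red, upper points) and 6 normal CO2 samples (blue, lower points) per gene, ordered by the ratio of group means. In every gene all red points lie to the left of all blue points; the gap is widest for AT5G40470 and closes toward the last genes.

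Of the 66 genes, 11 carry a gene name in the RefSeq table of the TAIR10.1 assembly and 55 are known there by their locus code or not at all. Functions are stated for named genes where they are established, and no function is assigned to a bare locus code. All signals that follow are intensities divided by the array median, and fold changes come from limma with their standard error (SE).

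Among genes of signalling and growth control, SWAP70 had the lowest ratio of low to normal CO2. It is named for a protein that in rice activates small GTPases of the Rac family. Its signal was 0.202, 0.352 and 0.457 (lowest, median and highest of 6 samples) at low CO2, against 1.03, 1.46 and 1.69 at normal CO2. The lowest normal CO2 sample was thus 2.26 times the highest low CO2 sample, and the log2 fold change was -2.03 ± 0.19. RALFL32 encodes a small secreted peptide of the rapid alkalinization factor type, a class of signals perceived at the cell surface. Its signal was 0.478, 0.781 and 1.32 at low CO2, against 1.33, 1.78 and 2.07 at normal CO2. The groups nearly touched, with low CO2 replicate 4 and normal CO2 replicate 6 side by side, and the log2 fold change was -1.12 ± 0.22.

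LAS (LATERAL SUPPRESSOR), a transcriptional regulator of the GRAS family needed to form axillary meristems, had signals of 1.11, 1.36 and 2.0 at low CO2, against 3.1, 3.44 and 4.56 at normal CO2. The groups were well apart, at a ratio of means of 39.9% and a log2 fold change of -1.55 ± 0.14. AGL26 is recorded under an AGAMOUS-like name. It gave 0.707, 1.03 and 1.23 at low CO2, against 2.05, 2.46 and 2.74 at normal CO2, a log2 fold change of -1.39 ± 0.18.

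Among the 66 were 2 genes of glycosyl hydrolase family 9, endoglucanases that act on cellulose-like chains of the cell wall. GH9B11 had signals of 0.00845, 0.196 and 0.433 at low CO2, against 0.562, 0.785 and 0.945 at normal CO2. Low CO2 replicate 4 was close to 0, and the log2 fold change of -1.82 ± 0.45 became -1.39 without that sample. GH9B16 had signals of 0.520, 0.640 and 0.818 at low CO2, against 1.40, 1.80 and 1.96 at normal CO2, with tight groups and a log2 fold change of -1.47 ± 0.14. The array holds 9 further probes for genes of this family, most of them shared between close relatives. They were not chosen by the rule, though they come from the same samples and partly match the same transcripts. By limma 5 of the 9 were called lower, none higher, and 4 did not pass, where 23.5% of all probes were called lower and 18.9% higher. With the replicate number as a block 3 of the 9 were called, all lower, and on averages of adjacent replicate numbers 2 passed. Such averages, of numbers 1 and 2, 3 and 4, and 5 and 6 within a group, are called pair averages below.

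The probe listed for GH9B18, GH9B17 and GH9B16 fell, at 0.323 to 0.569 in low CO2 samples and 1.20 to 1.89 in normal CO2 samples (log2 fold change -1.76 ± 0.15, limma adjusted p = 7.44e-06, and 0.0125 on pair averages). The probe for GH9B10 and GH9B9 fell as well, at 0.455 to 1.06 in low CO2 samples and 1.82 to 3.04 in normal CO2 samples (log2 fold change -1.77 ± 0.23, limma adjusted p = 8.54e-05, and 0.0242 on pair averages). GH9B8 (log2 fold change -0.42 ± 0.32) and probe 2019 for GH9B15 and GH9B14 (0.38 ± 0.23) did not pass, with limma adjusted p = 0.319 and 0.220. GH9B12 (-2.68 ± 1.32) and probe 2884 for GH9B15 and GH9B14 (-2.86 ± 2.14) did not pass either, with limma adjusted p = 0.125 and 0.308, and both held values of 0 at low CO2. No difference between family members was tested.

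GLDH, the mitochondrial enzyme of the last step of ascorbate synthesis, had signals of 1.87, 2.12 and 2.32 at low CO2, against 3.14, 4.12 and 4.59 at normal CO2. Its mean at low CO2 was 53.8% of that at normal CO2, and its log2 fold change was -1.15 ± 0.11. SECE1, a subunit of the plastid Sec translocase that passes proteins across the thylakoid membrane, gave 0.699, 1.06 and 1.27 at low CO2, against 1.60, 2.42 and 3.08 at normal CO2. Its groups were 1.25-fold apart at their nearest samples, and its log2 fold change was -1.25 ± 0.19. At normal CO2 replicates 5 and 6 lay lowest in both GLDH and SECE1.

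MHF2, DRT101 and UBA1A made up the rest of the named set. AT1G78790 encodes MHF2, a histone-fold protein that works with the FANCM helicase and limits meiotic crossovers. Its signal was 0.0282, 0.412 and 0.563 at low CO2, against 0.932, 1.3 and 1.65 at normal CO2, and the lowest value came from replicate 6, without which the log2 fold change of -2.22 ± 0.61 was -1.64. DRT101 is named for DNA damage repair and toleration, and no function is stated for it here. It gave 2.43, 2.64 and 3.18 at low CO2, against 4.23, 5.99 and 7.26 at normal CO2. Its log2 fold change was -1.44 ± 0.11. UBA1A, a nuclear RNA-binding protein found with the oligouridylate-binding protein UBP1, gave 1.1, 1.6 and 2.07 at low CO2, against 2.97, 3.35 and 3.92 at normal CO2, a log2 fold change of -1.28 ± 0.16. In all of these the lowest normal CO2 sample lay at least 1.33 times above the highest low CO2 sample.

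**Figure D2:**
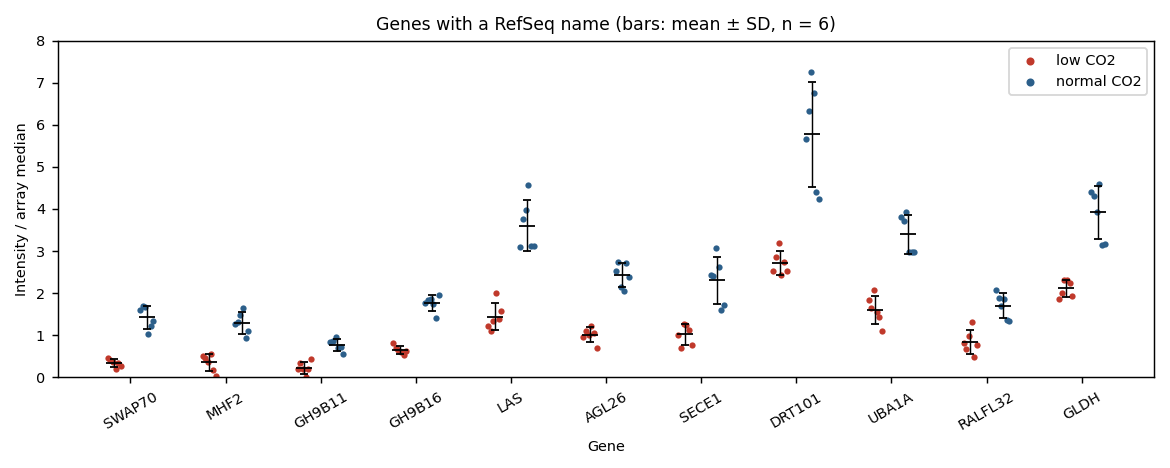
Signal divided by the array median for the 11 genes with a RefSeq name, low CO2 (red) left of normal CO2 (blue), 6 samples each with mean and SD. The red points lie below the blue ones in each gene, with a narrow gap for RALFL32.

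The lowest ratio of all belonged to AT4G24910, whose signals were 0, 0.172 and 0.483 at low CO2, against 0.662, 1.05 and 2.25 at normal CO2. Replicates 5 and 6 were at 0 in low CO2, so the log2 fold change of -5.22 ± 1.89 rests on replaced zeros. It was -3.83 without low CO2 replicate 6 and -2.26 with a pseudocount. AT5G40470 was the most widely separated, with 1.0, 1.35 and 1.76 at low CO2, against 5.17, 7.79 and 12.4 at normal CO2. The nearest samples were 2.95-fold apart, and the log2 fold change was -2.81 ± 0.22. AT3G11150 was nearly as clear, at 0.314, 0.467 and 0.593 in low CO2, against 1.71, 2.0 and 2.34 in normal CO2. Its nearest samples were 2.89-fold apart and its log2 fold change was -2.20 ± 0.17.

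AT4G38020 had signals of 0.0601, 0.124 and 0.273 at low CO2, against 0.528, 0.627 and 0.715 at normal CO2. It was a dim probe near the intensity minimum, and its log2 fold change was -2.04 ± 0.42, or -1.31 with a pseudocount. AT4G33500 had 1.36, 2.04 and 3.49 at low CO2, against 4.88, 7.07 and 10.6 at normal CO2. Its spread was wide in both groups, with low CO2 replicate 1 the highest there and normal CO2 replicate 5 the lowest, and its log2 fold change was -2.18 ± 0.23. AT4G16490 had 0.183, 0.322 and 0.570 at low CO2, against 0.907, 1.18 and 1.57 at normal CO2, a log2 fold change of -1.77 ± 0.25. AT2G30320 had 1.95, 2.13 and 4.06 at low CO2, against 7.55, 8.68 and 11.4 at normal CO2. In this gene replicates 3 and 4 stood above the other low CO2 samples, and the log2 fold change was -2.18 ± 0.18.

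The remaining 48 genes, all known by locus code, had means at low CO2 of 29.7% (AT1G04420) to 75.5% (AT1G34270) of those at normal CO2. Limma log2 fold changes in them ran from -2.62 ± 1.51 for AT4G20760, which holds a replaced 0, to -0.48 ± 0.13 for AT4G30680. AT5G10910 and AT1G07460 were at 32.8% and 33.7%, with their nearest samples 1.78-fold and 2.04-fold apart. At the other end AT4G31470 and AT1G03810 were at 68.2% and 68.4%, with nearest samples touching within rounding in AT4G31470 and 1.01-fold apart in AT1G03810.

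Many genes met the rule by a narrow margin. Over the 66 the lowest normal CO2 sample was a median of 1.24 times the highest low CO2 sample. The margin was under 1.1-fold in 17 genes and at least 1.5-fold in 21. Closest inside were AT1G03660, AT2G03200 and AT5G43770, at ratios of 1.001, 1.003 and 1.005, and closest outside were AT3G47980, AT1G49870 and AT3G58610, at 0.988, 0.983 and 0.983. On the intensity minimum, AT4G05490 (0.309), AT4G38020 (0.323) and AT5G02710 (0.371) lay just inside. AT1G70350 (0.293), AT5G50350 (0.283) and iqd32 (0.262) were separated but just outside.

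The samples did not contribute evenly to the signal of the 66 probes. Their median signal was 0.830 to 0.955 over the low CO2 samples and 1.66 to 2.30 over the normal CO2 samples. At normal CO2 replicates 3 and 4 were highest (2.14 and 2.30), and replicates 5 and 6 lowest (1.66 and 1.76). With adjacent numbers averaged, numbers 3 and 4 gave the highest normal CO2 value in 37 of the 66 genes (56.1%), and the same held for 53.4% of the 472 single-gene probes. The low CO2 samples lay closer together, with numbers 3 and 4 highest in 30 genes. Taking samples of the same number in both groups, the median ratio of low to normal CO2 was 0.379 in number 3 and 0.459 and 0.468 in numbers 1 and 5, with the other numbers between 0.428 and 0.431. The median coefficient of variation of the 66 probes was 23.6% at low and 20.4% at normal CO2, compared with 23.1% and 26.8% for the 472, and the rule itself favours small spreads.

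**Figure D3:**
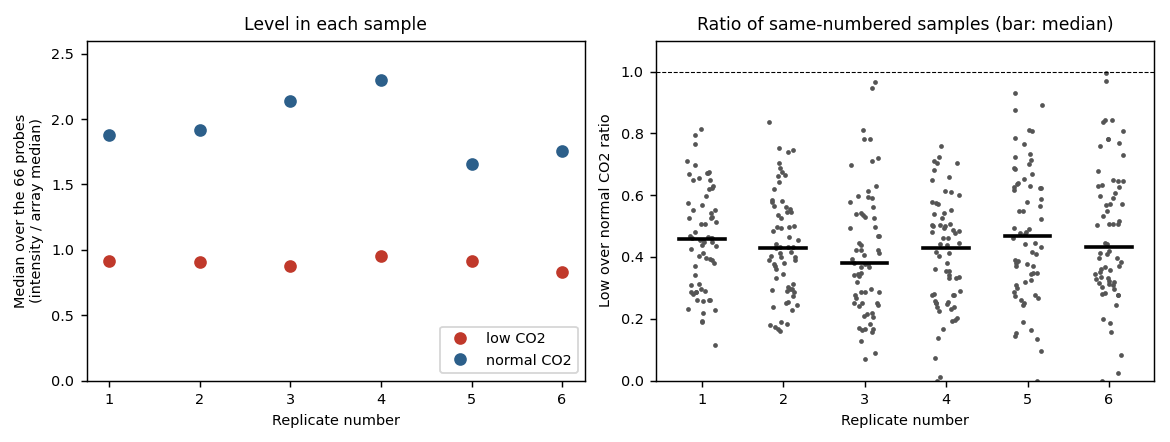
Left, median signal of the 66 probes (divided by the array median) in each sample against replicate number, low CO2 in red and normal CO2 in blue. Right, ratio of low to normal CO2 for each probe within each replicate number, with a bar at the median. All medians on the right lie between 0.379 and 0.468, and single probes come close to 1 in numbers 3 and 6.

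Other probes that list a selected gene gave a mixed picture. There were 10 of them, 9 shared with related genes and 1, for AT2G25870, listed with that gene alone. The selected probe of AT2G25870 gave 0.890, 1.23 and 1.41 at low CO2, against 1.77, 2.09 and 3.20 at normal CO2, a log2 fold change of -1.04 ± 0.20. Its other probe gave 0.936, 1.07 and 1.56 at low CO2, against 0.551, 0.752 and 1.05 at normal CO2. The probes thus pointed in opposite directions. The second was called higher by limma (log2 fold change 0.67 ± 0.21, adjusted p = 0.0220). It did not pass by limma on pair averages (adjusted p = 0.171). Nor did it pass with these pairs of adjacent numbers as a random block (adjusted p = 0.0765).

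Of the 9 shared probes, those of GH9B11, GH9B16, AT2G46910 and AT1G03810 were also lower at low CO2 with no overlap. Those of GH9B11 (log2 fold change -3.64 ± 1.21) and AT1G03810 (-4.93 ± 1.73) held a value of 0 at low CO2. Neither passed by limma on pair averages (adjusted p = 0.071 and 0.0764) or with pairs as a random block (0.201 and 0.231). The probe of AT2G46910, shared with AT4G22240 and FIB, was at 0.263, 0.451 and 0.606 at low CO2, against 1.12, 1.43 and 2.06 at normal CO2 (log2 fold change -1.80 ± 0.20, limma adjusted p = 3.33e-05, and 0.0191 on pair averages). Shared probes of AT4G17440 and AT4G32340 were higher at low CO2 with no overlap, and that of AT4G38670 was higher with overlap. The AT4G17440 and AT4G38670 probes had mean deposited intensities of 0.0992 and 0.247 at normal CO2, under the minimum of 0.3 set for the selected probes. Neither passed by limma on pair averages (adjusted p = 0.151 and 0.17) or with pairs as a random block (0.0523 and 0.122). The AT4G32340 probe gave 2.05 to 2.99 in low CO2 samples and 0.538 to 1.48 in normal CO2 samples (log2 fold change 1.14 ± 0.27, limma adjusted p = 0.00559, and 0.108 on pair averages). Those of AGL26 and AT1G22850 did not pass (limma adjusted p = 0.458 and 0.199). In all, limma called 4 of the 10 lower and 4 higher, where 23.5% of all probes were called lower and 18.9% higher. Without normal CO2 replicate 3 the counts were 2 lower and 3 higher, and without normal CO2 replicate 4 they were 2 lower and 4 higher. On pair averages 2 of the 10 passed, both lower, where 618 of the 3439 probes were called. With pairs as a random block 3 of the 10 passed, of which the AT4G32340 probe was higher (adjusted p = 0.0116) and the other two lower, where 1006 probes were called.

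**Figure D4:**
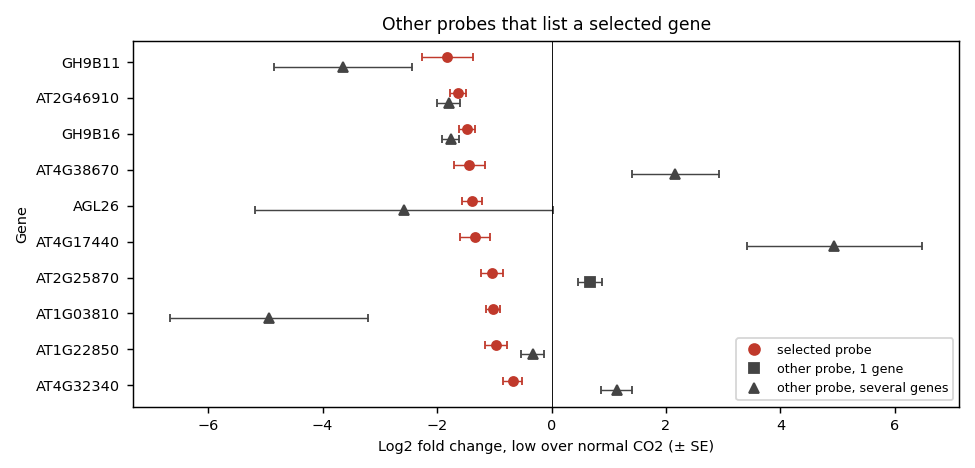
Limma log2 fold change, low over normal CO2, with SE, for the selected probe (red circle) of 10 genes and for another probe that lists the same gene, alone (square) or with other genes (triangle). Other probes of AT4G38670, AT4G17440, AT2G25870 and AT4G32340 lie to the right of 0, and those of the remaining genes to the left.

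Where a probe stood in the array's numbering went along with its fold change. Probe numbers were divided into equal stretches, each in 48 places of 6 numbers, and the median fold change of all other probes was taken per place. Of the 66 selected probes, 53 (80.3%) stood at places with a median below 0, while 51.7% of the 472 single-gene probes of the same minimum intensity and 46.4% of all probes did. With each sample's median deviation at a place subtracted, all 66 probes still had a lower mean at low CO2. Their median log2 difference was then -1.0, in place of -1.44, and 39 of the 66 kept their groups apart. All 13 genes at places with a median at or above 0 were among the 39, and AT5G40470 was one of them, at -3.40. At such places the subtraction widens the difference, from a median of -1.17 to -1.56 in the 13. Their groups were thus all but bound to stay apart. Of the 53 at places below 0, 26 kept their groups apart. AT4G24910, GH9B11, UBA1A and RALFL32 were among the 27 whose groups then overlapped, with log2 differences of -4.55, -1.32, -0.74 and -0.69. The smallest remaining difference was -0.05, for AT4G30680. The 5 other GH9 probes called lower also stood at places with medians below 0, from -0.74 to -0.41, and with these subtracted they were at -2.88 to -0.38. The value of -2.88 came from the probe for GH9B12, GH9B11, GH9B10 and GH9B9, which held a value of 0 at low CO2.

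**Figure D5:**
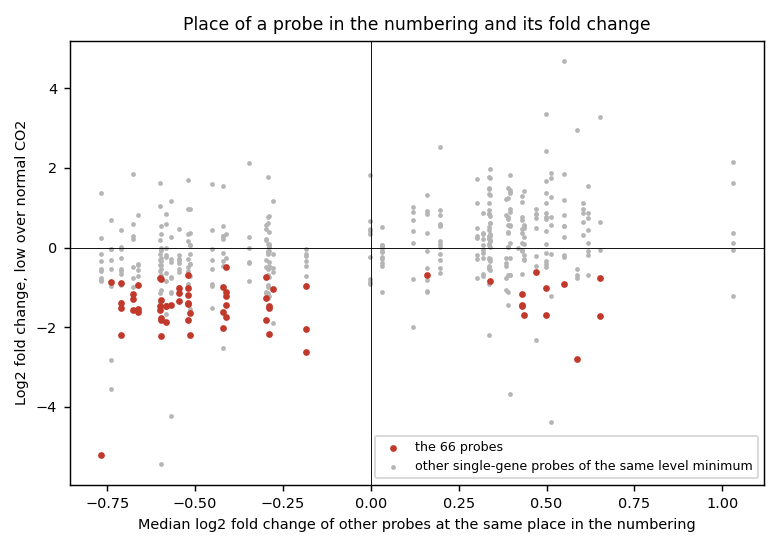
Limma log2 fold change of the 472 single-gene probes of the minimum intensity against the median log2 fold change of other probes at the same place in the numbering, with the 66 selected probes in red. Most red points lie left of 0 on the horizontal axis, and 13 lie right of it.

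The 66 genes were unevenly spread over the chromosomes. Chromosomes 2 and 4 held 20 each, which is 20.4% and 20.2% of their single-gene probes of the minimum intensity. Chromosomes 1, 5 and 3 held 15, 7 and 4, or 13.4%, 8.97% and 4.76%. These counts omit the 9 left-out genes that met the rule, though the totals behind the shares hold them. Among the 9 are AT1G61990, AT1G62010 and AT1G79080 of chromosome 1, AT2G32040 of chromosome 2 and AT4G14050 of chromosome 4. More genes thus met the rule on these chromosomes than the shares state. The mirrored rule for genes higher at low CO2 took 6.12% on chromosome 2 and 26.2% on chromosome 3. It left out no genes by name and kept the minimum intensity on normal CO2, so it is not an exact mirror. Place in the numbering followed the chromosome too: 82.7% and 82.8% of the single-gene probes of chromosomes 2 and 4 stood at places with a median below 0, but 44.6%, 26.2% and 10.3% of those of chromosomes 1, 3 and 5. Chromosome and place moved together, and their parts in the result were not tested.

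Words in RefSeq names placed 41 single-gene probes, 5 of them among the 66, in classes of function. In the class of carbohydrate and cell wall enzymes limma called 3 of 7 genes lower and 1 higher, where 23.5% of all probes were called lower and 18.9% higher. The median log2 fold change of the class was -1.47, against -0.05 over all probes. All 3 lower ones are among the 66 and were chosen on this contrast, so neither value is independent of the choice. They were GH9B11, GH9B16 and GLDH, an ascorbate enzyme placed here by the galactonolactone in its name, and the higher one was MAMI, at 1.18. The class rests on name words alone, so MAMI need not be such an enzyme, and true cell wall enzymes may be missing from it. Of 6 kinase, phosphatase and signalling genes 3 were called lower and 1 higher, SWAP70 being the only one of the 66. The word phosphatase brought the Calvin-Benson enzyme SBPASE into this class, which met the rule but was left out by name. Of 6 genes placed by name words alone under DNA, chromatin and transcription, DRT101 was called lower and none higher. DRT100 was at 4.32 and did not pass. The rule leaves out 17 genes by name, so the absence of the 66 from a class can come from that list. It holds 3 of the 7 photosynthesis genes (CHLM, LHB1B2 and PRK), 3 of the 6 other oxidoreductases (ETFQO, NTRC and Z-ISO) and the 1 lipid enzyme (FATB), of which CHLM and Z-ISO met the rule otherwise. The classes with none of the 66 genes, with their limma calls, were photosynthesis (2 higher and 3 lower of 7, the 3 lower being CHLM, LHB1B2 and PRK, and 1 lower with arrays divided by their median), proteases and chaperones (2 higher and 0 lower of 5, or 1 lower with the replicate block), other oxidoreductases (1 and 2 of 6), amino acid and cofactor enzymes (1 and 0 of 2), RNA processing (1 and 0 of 1) and lipid enzymes (0 and 0 of 1).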

How the data were processed

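The authors deposited linear array intensity values for 12 samples of total RNA, with their scanner, background correction and scaling not given in the sources used here. Array means lie near 1, and precision depends on how many arrays there are. The annotation lists 692 probes with 1 gene, 870 with several and leaves 1877 unlisted, and all entered the fit. Of the 692, 690 matched a RefSeq (TAIR10.1) gene, as did 65 of the 66. Each 0 took the lowest positive value on its array, and log2 values were quantile normalized (array medians differed up to 1.68-fold). The comparison used limma 3.58.1 under R 4.3.3, two-sided, 6 against 6 with no block. A check on simulated data drew all samples independently, so it cannot show what correlated samples do to the calls. Same-numbered samples, numbered by title, deviated together at correlations of 0.128 to 0.214. Differently numbered samples of the 2 groups were not compared in this way, so pairing is not established. The fit with the replicate number as a block is given as an alternative. The consensus correlation within adjacent numbers was 0.567, so p-values and SEs from 6 against 6 are likely too small. Measured another way, as deviations from the group mean, adjacent numbers correlated unevenly. The values were 0.097, -0.077 and 0.042 at low CO2 and 0.104, -0.005 and 0.437 at normal CO2, the last for numbers 5 and 6.

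Members and lists were chosen with earlier results of these data known. Named in full are the 10 lowest ratios and, for each function class, up to 2 members by intensity. All RefSeq-named members were added to these. As RefSeq gave no product descriptions, classes used name words only. Promoter motifs were not analysed here.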

Additional observations from a re-analysis of the deposited data

Results flagged for a closer look

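None of the 36 sets of 6 values for the 18 genes described one by one had a highest or lowest sample separated from the rest by more than Dixon's critical share of the range. Chance alone gives about 1 in 20, or 1.8 sets, in genes not chosen on these values. The rule favours small spreads, so the absence of such sets is no check on the samples.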

How the results depend on the processing

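On the deposited scale 152 probes met the selection rule in place of 66, all 66 among them, and the median log2 difference of the 66 was -1.91 in place of -1.44. With adjacent replicate numbers averaged, 112 probes met the rule, again with all 66 among them, and limma called 618 probes in place of 1457. Neither setting could lose any of the 66, so their retention is no check. Groups that lie apart stay apart in averages, and the lower medians of the low CO2 arrays only widen the gap. Correcting for the place in the numbering, an alternative chosen after seeing the data, left 65 probes that met the rule, 39 of them shared with the 66, and the median was -1.0. The cause of these shifts was not tested, except that the deposited scale carries the lower array medians at low CO2 and 3 averages a group overlap less easily than 6 samples.

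Quantile normalization left 82 probes meeting the rule (63 shared), division by the 75th percentile 91 (65 shared), and minimum intensities of 0.2 and 0.5 gave 72 and 56. Leaving out 1 sample gave 66 to 77 probes meeting the rule, a median of -1.47 to -1.38 and 1332 to 1425 probes called. With the replicate block 1578 probes were called, and the median stayed at -1.44, as it must in a balanced design. The other GH9 probes called lower then numbered 3 in place of 5. Calls higher and lower split 649 to 808, but 373 to 1302 on the deposited scale and 724 to 703 with each array divided by its median, the scaling of the selection rule. No sign turned among 395 recomputed log2 differences of the 18 genes described one by one. The choice of these genes on the same contrast all but fixes that. Averages of adjacent numbers and either block leave the differences unchanged by design. Of the 395, 27 moved by more than the SD between samples. Values at or near 0 limit AT4G24910, AT4G20760, GH9B11, AT1G78790 and AT4G38020. No background correction could be tried.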

Other observations

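The share of single-gene probes among the 66 was 8.20% of the 122 with a deposited intensity of 0.3 to 0.5 at normal CO2, 12.1% of 182 between 0.5 and 1, 19.1% of 115 between 1 and 2 and 22.6% of 53 above that, and the median log2 ratio in these bands was -1.35, -1.43, -1.22 and -0.99. The mirrored rule took 13, 29, 17 and 13 probes of the same 122, 182, 115 and 53. The bands were cut on normal CO2 values, which the rule for the 66 required to be the higher ones. A share that rises with intensity can thus come in part from the choice, and no conclusion is drawn from it.

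AT2G28755 and AT2G28790 were the closest neighbours among the 66 on a chromosome, with 2 protein-coding genes between them. AT2G28755 had signals of 1.39, 2.21 and 2.83 at low CO2, against 4.61, 5.14 and 5.34 at normal CO2. AT2G28790 had signals of 0.0868, 0.331 and 0.428 at low CO2, against 0.464, 0.794 and 0.907 at normal CO2. Their means at low CO2 were 42.4% and 39.0% of those at normal CO2. AT1G04330 and AT1G04420, with 8 genes between them, were at 34.5% and 29.7%.

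The numbering of probes also followed the order of loci. Of 118 pairs of single-gene probes 12 numbers apart, 19 were on the same chromosome with locus codes under 500 apart, and none was among the 94 pairs 11 apart or the 105 pairs 13 apart. The probes of GH9B11 and GH9B12, numbers 1490 and 1502, stand in such a row with the GH9 probes 1466 and 1478, and all of them had lower means at low CO2, at 29.5%, 33.6%, 13.1% and 31.6% of normal CO2.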
